A study of Mus musculus with 11 samples.

Results

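Akap11, Akap1, Wsb2 and Wsb1 are 4 of the 54838 genes counted in RNA-seq libraries of mouse embryonic stem cells (ESCs) in which the mRNA cap methyltransferase CMTR1 was targeted by siRNA. Akap11 and Wsb2 were selected on their own read counts in these libraries, because both genes were called different from control with each of the CMTR1 siRNAs and no library of either siRNA overlapped a control library. Their values with the siRNAs are therefore given as a description, without a test. Akap1 and Wsb1 were taken as relatives of the same families, not on their values, and were tested.

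All cells were of the E14 line, cultured with LIF on gelatin, and all were transfected with siRNA for 36 h. The control group received a scramble siRNA (3 libraries), and the other groups received CMTR1 siRNA 1 (4 libraries) or CMTR1 siRNA 2 (4 libraries). No library came from untransfected cells, and a single cell line and a single time were sampled, so the data describe an early response in 1 genetic background. The study's methods call the replicates used for sequencing biological, while the labels do not say that those of a group came from separate cultures. Where they did not, p-values measure only the spread between these libraries, which may be technical. Gene read totals ran from 6738478 to 8382318 per library, and each gene is given as reads per 1000000 gene reads of its library (CPM).

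A-kinase anchoring proteins (AKAPs) hold protein kinase A (PKA), the cAMP-dependent kinase, at defined places in the cell by binding its regulatory subunits. AKAP11 also binds the kinase GSK3 and the phosphatase PP1, and it acts as an autophagy receptor that brings PKA regulatory subunits to LC3 on the autophagosome. AKAP1 anchors PKA at the outer mitochondrial membrane. AKAPs are grouped by this function and need not share ancestry outside the kinase-binding helix. WSB1 and WSB2 are closely related proteins with WD repeats and a SOCS box, the motif through which a substrate receptor joins elongin B, elongin C and the cullin CUL5 in a ubiquitin ligase. CMTR1 methylates the ribose of the first transcribed nucleotide of an mRNA.

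The siRNA targets and the first transcribed base of each gene are shown because the siRNAs define the groups and because that base is the substrate of CMTR1. The targets of both siRNAs were read from the GENCODE Cmtr1 mRNA (transcript Cmtr1-201) of build GRCm38. The siRNA 1 target lies at chr17:29691377-29691395 on the plus strand, in the coding sequence of exon 13 of 24, and the siRNA 2 target at chr17:29680594-29680612, in the coding sequence of exon 6. Both are written 5′ to 3′, with the bases that pair with the guide seed (guide positions 2 to 8) in capitals.
CMTR1 siRNA 1 target: caaaggagaccATGAATTt
CMTR1 siRNA 2 target: gatggttattgAAGATGAa

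The seed match ATGAATT of siRNA 1 was found 0 times in the 3′ UTR of Akap11 (3530 bases) and 0 times in that of Wsb2 (1049 bases). It occurred 1 time in the 3′ UTR of Akap1 (963 bases) and 1 time in that of Wsb1 (931 bases), and in 13.7% of the 3′ UTRs of 13079 tested genes. The seed match AAGATGA of siRNA 2 was found 0 times in each of the 4 genes, and in 15.0% of the tested genes. The search used the longest annotated protein-coding transcript of each gene on its transcribed strand, and a match is a description only. Passenger strands and the control siRNA were not searched.

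The 20 bases before the annotated RefSeq start nearest to the GENCODE start (build GRCm38.p6) are given in lower case and the first transcribed base in a capital.
Akap11, chr14:78536860-78536880, minus strand: gcgacggctctcgcgagagtG
Akap1, chr11:88864586-88864606, minus strand: agggcgaggggcggggccttG
Wsb2, chr5:117357285-117357305, plus strand: cccgccggccgccatgtgacG
Wsb1, chr11:79254695-79254715, minus strand: cccgcctcccagatattatcA
Akap11, Akap1 and Wsb2 were annotated to start with G and Wsb1 with A. Of 32851 RefSeq starts, 35.6% were G and 34.4% were A, so the genes shared the most frequent starting bases. RefSeq listed 2 starts for Akap11, 3 for Akap1, 1 for Wsb2 and 2 for Wsb1, and these libraries do not show which was used.

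The targeted gene itself was low in every library. Cmtr1 had 21.3, 21.7 and 17.9 CPM in the control libraries. It had 21.1, 21.3, 16.2 and 18.04 CPM with siRNA 1 and 15.6, 16.8, 16.5 and 19.5 CPM with siRNA 2. The groups overlapped with both siRNAs. The log2 fold change was -0.09 (SE 0.106, adjusted p = 0.743) with siRNA 1 and -0.25 (SE 0.107, adjusted p = 0.144) with siRNA 2 by edgeR's quasi-likelihood test, so a fall in Cmtr1 mRNA was not shown at this depth of 110 to 176 reads. CMTR1 protein was not measured in these libraries. The paper states that CMTR1 fell rapidly after siRNA transfection, and it lists both siRNAs for western blots. ESC markers (8 genes, summed) lay at 1676 to 1762 CPM in control, at 1373 to 1576 CPM with siRNA 1 and at 1500 to 1581 CPM with siRNA 2, and 6 and 4 of the 8 fell, against 1.97% and 3.55% of all tested genes. The 6 germ layer markers summed to 83.5 to 94.6, 95.2 to 112 and 101 to 115 CPM, and 1 of them, Nes, rose with each siRNA. The 5 fibroblast markers summed to 20.4 to 24.6, 21.4 to 25.5 and 29.0 to 34.9 CPM, with Postn and Lum at no more than 1 read in any library and Col1a1 higher with siRNA 2. The ESC and germ layer sums did not overlap control with either siRNA, and the lowest ESC sum was with siRNA 1. The fibroblast sum overlapped control with siRNA 1 but not with siRNA 2. The part of these marker levels in the values of Akap11, Wsb2 and the pathway genes was not tested. In bulk RNA, fewer cells that express a gene and less RNA of it per cell cannot be told apart.

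Akap11 (ENSMUSG00000022016, chr14:78492246-78536808, minus strand) was higher with both CMTR1 siRNAs than in control, and highest with siRNA 2. The control libraries had 129.9, 130.6 and 119.9 CPM. The siRNA 1 libraries had 156.7, 164.4, 153.2 and 150.5 CPM. The siRNA 2 libraries had 202.1, 173.6, 174.0 and 173.9 CPM. No library of one group overlapped another, and replicate 1 of siRNA 2 stood well above the other libraries of its group. The log2 fold change against control was 0.30 (SE 0.055, 95% interval 0.19 to 0.41), or 1.23-fold, with siRNA 1. It was 0.51 (SE 0.055, 95% interval 0.40 to 0.62), or 1.42-fold, with siRNA 2. Akap11 was 0.21 (SE 0.05) higher in log2 with siRNA 2 than with siRNA 1. Without replicate 1 of siRNA 2, these differences of siRNA 2 were 0.45 against control and 0.15 against siRNA 1. Each library held 891 to 1455 Akap11 reads.

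Wsb2 (ENSMUSG00000029364, chr5:117357304-117378601, plus strand) was lower with both CMTR1 siRNAs than in control, and lowest with siRNA 2. The control libraries had 104.9, 97.3 and 100.7 CPM. With siRNA 1 the values were 84.4, 89.6, 82.9 and 86.5 CPM. With siRNA 2 they were 67.0, 74.0, 69.2 and 71.6 CPM. The 3 groups did not overlap, and the spread within each was small, with SDs of 2.88 to 3.79 CPM. The log2 fold change against control was -0.23 (SE 0.055, 95% interval -0.34 to -0.12) with siRNA 1, a level 0.851 times that of control. It was -0.52 (SE 0.056, 95% interval -0.63 to -0.41) with siRNA 2, a level 0.699 times that of control. Wsb2 was -0.28 (SE 0.054) in log2 with siRNA 2 relative to siRNA 1.

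Akap11 and Wsb2 thus moved in opposite directions, each in the order control, siRNA 1, siRNA 2. Of all 16073 genes tested, 83 (0.516%) had the 3 groups in that order, rising or falling, with no overlap between libraries. The selection used the same libraries, so this share is given as background to it. Libraries did not overlap with control for 15.5% of tested genes with siRNA 1 and for 19.4% with siRNA 2, and 4.67% and 9.72% of tested genes were called at a false discovery rate of 0.05. A narrower list held genes called in the same direction with both siRNAs and separate from control with both. It required a mean log2 CPM of at least 2 and left out genes with Gm, AC, AL, CT or Rik symbols. Among its 283 genes, ordered by the adjusted p of siRNA 2, Akap11 was at place 3 and Wsb2 at place 4. The genes just below them were Tns3 (log2 fold change 0.41) and Ak4 (log2 fold change -0.74). In the same order for siRNA 1, Akap11 was at place 68 and Wsb2 at place 159. These places rest on the values that selected Akap11 and Wsb2, so they only describe that selection.

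**Figure D1:**
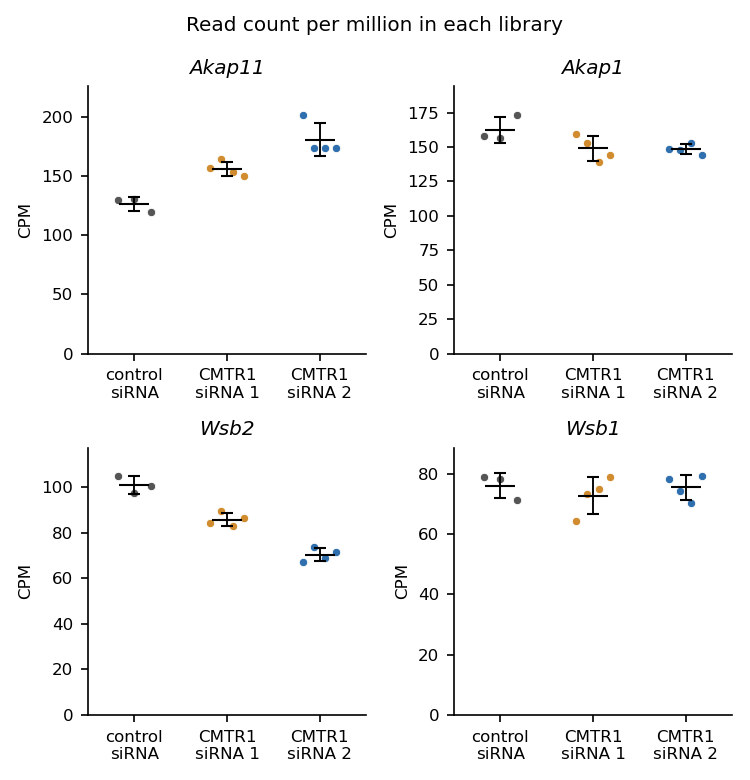
Read count scaled to library size (CPM, vertical axes starting at 0) of Akap11, Akap1, Wsb2 and Wsb1 in each library (points), by siRNA group, with the mean (wide bar) and SD (error bar). Akap11 and Wsb2 separate the 3 groups, with siRNA 2 at 174 to 202 CPM for Akap11 and 67.0 to 74.0 CPM for Wsb2, while the groups of Wsb1 overlap throughout.

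Akap1 (ENSMUSG00000018428, chr11:88830792-88864586, minus strand) did not pass the test with either siRNA, and its values lay below control, opposite to Akap11. The control libraries had 157.8, 156.3 and 173.5 CPM. Those of siRNA 1 had 159.7, 152.8, 139.1 and 144.5 CPM. Those of siRNA 2 had 148.9, 147.9, 153.0 and 144.1 CPM. The siRNA 1 libraries overlapped control and the siRNA 2 libraries did not. The log2 fold change was -0.12 (95% interval -0.23 to -0.02, adjusted p = 0.184) with siRNA 1 and -0.13 (95% interval -0.23 to -0.03, adjusted p = 0.11) with siRNA 2 by edgeR's quasi-likelihood test. The difference between the siRNAs was -0.005 (95% interval -0.10 to 0.09, adjusted p = 0.97 in the same fit). The intervals for single genes leave out 0 against control, but the p-values did not pass after adjustment over all genes.

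Wsb1 (ENSMUSG00000017677, chr11:79239372-79254671, minus strand) did not pass the test either, and its values lay near those of control. The control libraries had 78.8, 78.1 and 71.2 CPM. With siRNA 1 the values were 64.3, 73.2, 74.8 and 78.7 CPM. With siRNA 2 they were 78.1, 74.3, 70.1 and 79.2 CPM. All 3 groups overlapped. The log2 fold change was -0.06 (95% interval -0.19 to 0.06, adjusted p = 0.69) with siRNA 1 and -0.01 (95% interval -0.14 to 0.11, adjusted p = 0.938) with siRNA 2 by edgeR's quasi-likelihood test. Both intervals lie wholly above the estimates of Wsb2 with the same siRNAs. With siRNA 1 the interval of Wsb1 overlapped that of Wsb2 (-0.34 to -0.12). With siRNA 2 it did not (-0.63 to -0.41 for Wsb2). Wsb2 was selected for its difference from control, however, and the difference between the genes was not itself tested.

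**Figure D2:**
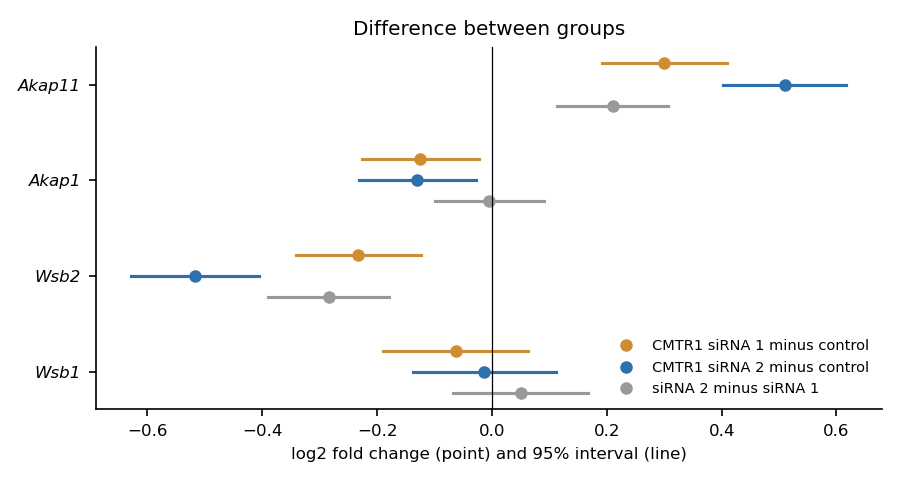
Log2 fold change (points) with its 95% interval (lines) of the 4 genes for siRNA 1 minus control, siRNA 2 minus control and siRNA 2 minus siRNA 1, from the edgeR fit. Akap11 lies to the right of 0 and Wsb2 to the left in all 3 comparisons, and all 3 intervals of Wsb1 include 0.

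Levels of different genes were compared per kilobase of annotated exon. In control, Akap1 was the highest at 37.0 ± 2.17 CPM per kb (SD, n = 3), followed by Wsb1 at 19.1 ± 1.06, Wsb2 at 17.2 ± 0.647 and Akap11 at 11.5 ± 0.542 CPM per kb. Wsb1 and Wsb2 were neighbours in this order whose control libraries touched, at 17.9 to 19.8 and 16.6 to 17.9 CPM per kb. With siRNA 1, Akap11 (14.2 ± 0.547 CPM per kb, SD, n = 4) and Wsb2 (14.7 ± 0.493) overlapped. With siRNA 2, Akap11 (16.4 ± 1.28) was above Wsb2 (12.0 ± 0.512) in every library, and its highest library overlapped the range of Wsb1 (18.9 ± 1.03). On this length, the order of Akap11 and Wsb2 with siRNA 2 was the reverse of that in control. The length joins all annotated exons of a gene (11015 bases for Akap11, 5857 for Wsb2). It can exceed that of the mRNA present in these cells. The order between genes depends on this length, and other lengths were not tried. Akap1 stayed highest in each group, at 33.9 ± 2.07 with siRNA 1 and 33.8 ± 0.834 CPM per kb with siRNA 2.

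Overlapping and neighbouring genes were also read. The last 499 bases of Wsb2, at chr5:117378103-117378601, also belong to exons of Rfc5, a subunit of the replication factor C clamp loader, on the opposite strand. Libraries were made with a directional kit, but the strand setting of the counting is not given in the sources used here, so reads in those bases may not be assigned to 1 gene. Rfc5 had 1097 to 1455 reads per library, and its log2 fold change was -0.03 with siRNA 1 (adjusted p = 0.833) and -0.005 with siRNA 2 (adjusted p = 0.969 by edgeR). Akap1 overlaps an antisense gene, 4930556N13Rik, that had 0 to 2 reads in any library. Of the 16 nearest tested protein-coding genes, 2 on each side of each of the 4 genes, 1 was called by edgeR with siRNA 1 and 0 with siRNA 2, against 4.67% and 9.72% of all tested genes. An unadjusted p under 0.05 was found for 6 and 1 of the 16, against 16.8% and 23.2%. The 1 called was Nf1, a negative regulator of Ras beside Wsb1, which rose with siRNA 1 (log2 fold change 0.20, adjusted p = 0.0157 by edgeR). That call was lost with DESeq2 and without control replicate 1 or 3 or siRNA 1 replicate 2. The neighbours' log2 fold changes ran from -0.38 to 0.21 with siRNA 1 and from -0.09 to 0.15 with siRNA 2. Dgkh, the diacylglycerol kinase gene that lies 21941 bases beyond the start of Akap11, had log2 fold changes of 0.17 and -0.08, neither of them called.

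Of 17 AKAP genes, 13 were high enough to test, and the 12 other than Akap11 were counted, since Akap11 was selected for being called. With siRNA 1, 0 of the 12 were called by edgeR, against 4.67% of all tested genes, and 3 had an unadjusted p under 0.05, against 16.8%. With siRNA 2, 0 rose and 1 fell (Akap5), against 6.17% and 3.55% of all tested genes. These counts are too small to set the other AKAP genes apart from the share over all genes. The median log2 fold change of the 12 was 0.06 with siRNA 1 and -0.01 with siRNA 2, where the median of all tested genes was 0.02 and 0.03. Akap5, which anchors PKA and calcineurin at the plasma membrane, had 8.89, 12.0 and 12.4 CPM in control and 6.11, 5.96, 10.2 and 9.38 CPM with siRNA 2. These libraries overlapped, and Akap5 fell by 0.48 on the log2 scale (adjusted p = 0.04 by edgeR). The call was lost with DESeq2 and without control replicate 2 or 3 or siRNA 2 replicate 1 or 2 (adjusted p up to 0.204).

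Among the cAMP and PKA genes, which make, degrade or answer cAMP, 36 of 40 were tested. With siRNA 1, 2 rose and 0 fell, against 2.71% and 1.97% of all tested genes, and with siRNA 2, 3 rose and 1 fell, against 6.17% and 3.55%. The median log2 fold change of the 36 was 0.09 and 0.13 with siRNA 1 and siRNA 2. The gene that fell was Prkar2a, the type II-alpha regulatory subunit through which PKA binds AKAPs. Prkar2a had 69.7, 67.1 and 60.4 CPM in control and 54.3, 53.6, 44.8 and 48.9 CPM with siRNA 2, and those groups did not overlap. Its log2 fold change with siRNA 2 was -0.39 (SE 0.069, adjusted p = 0.00015 by edgeR). With siRNA 1 it had 55.5, 59.1, 64.2 and 57.7 CPM, which overlapped control, and a log2 fold change of -0.15 (adjusted p = 0.226).

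The type I-alpha regulatory subunit, Prkar1a, was not called against control with either siRNA. It had 95.1, 96.6 and 96.6 CPM in control, 103.4, 107.4, 111.6 and 107.6 CPM with siRNA 1, and 98.6, 104.4, 85.5 and 90.3 CPM with siRNA 2. The siRNA 1 libraries lay above control and the siRNA 2 libraries on both sides of it. Its log2 fold changes were 0.16 (adjusted p = 0.104) and -0.02 (adjusted p = 0.882 by edgeR). Between the siRNAs, where 7.44% of all tested genes were called, Prkar1a and Prkar2a were both lower with siRNA 2, with log2 differences of -0.18 (adjusted p = 0.028) and -0.23 (adjusted p = 0.0213 by edgeR). The catalytic subunit gene Prkaca was not called either, at 0.03 and -0.07.

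Of the adenylyl cyclases, the enzymes that make cAMP, Adcy7 rose with both siRNAs. It had 4.57, 4.81 and 6.73 CPM in control, 9.94, 8.85, 7.79 and 8.55 CPM with siRNA 1, and 9.52, 10.0, 7.82 and 9.76 CPM with siRNA 2, with no overlap with control. Its log2 fold change was 0.71 (SE 0.163, adjusted p = 0.00492) with siRNA 1 and 0.80 (SE 0.16, adjusted p = 0.000664 by edgeR) with siRNA 2. The siRNA 1 call was lost without control replicate 2 (adjusted p = 0.0569). Adcy2 was called higher with siRNA 1 (log2 fold change 1.17, adjusted p = 0.045) from under 4 CPM in any library, and the call was lost when any of 6 libraries was left out, control replicates 2 and 3, siRNA 1 replicates 1, 2 and 4, and siRNA 2 replicate 2. Adcy2 was not among the genes that passed the limit of 5 CPM, and DESeq2 gave it no adjusted p. Its value with siRNA 2 was 0.97 (adjusted p = 0.085 by edgeR). Gnas, the stimulatory G protein that activates adenylyl cyclase, had 155.3, 150.2 and 153.7 CPM in control and 191.6, 198.2, 178.6 and 169.4 CPM with siRNA 2, and it rose by 0.27 in log2 (adjusted p = 0.000712 by edgeR). The siRNA 1 value of Gnas was 0.14 (adjusted p = 0.139). Gnas gives rise to several transcripts from one locus, which gene counts do not separate. Atf1, a transcription factor phosphorylated by PKA, rose by 0.20 with siRNA 2 (adjusted p = 0.0267 by edgeR), and the call was lost with TMM factors, with DESeq2 and without control replicate 1 or 3 or siRNA 2 replicate 1 or 2.

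Of 20 genes for AKAP11 partners and autophagy receptors, all were tested. With siRNA 1, 1 rose and 1 fell, against 2.71% and 1.97% of all tested genes. With siRNA 2, 1 rose and 0 fell, against 6.17% and 3.55%. Their medians were 0.02 and 0.04. Gsk3b, a kinase that AKAP11 binds, was the gene that rose with both. It had 103.2, 97.9 and 93.1 CPM in control, 125.8, 124.8, 133.1 and 124.2 CPM with siRNA 1, and 118.2, 112.4, 105.7 and 117.8 CPM with siRNA 2. Every CMTR1 siRNA library was above every control library. The log2 fold change was 0.37 (SE 0.055, adjusted p = 1.48e-05) with siRNA 1 and 0.21 (SE 0.055, adjusted p = 0.01 by edgeR) with siRNA 2, where it was lost without control replicate 3 (adjusted p = 0.097). Gabarapl2, an autophagosome protein of the LC3 family, fell by 0.33 in log2 with siRNA 1 (adjusted p = 0.00401 by edgeR). It had 50.2, 56.4 and 49.4 CPM in control and 38.4, 40.4, 47.3 and 39.4 CPM with siRNA 1, and the call was lost without control replicate 2 (adjusted p = 0.0892). With siRNA 2 its value was -0.19 (adjusted p = 0.0889).

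**Figure D3:**
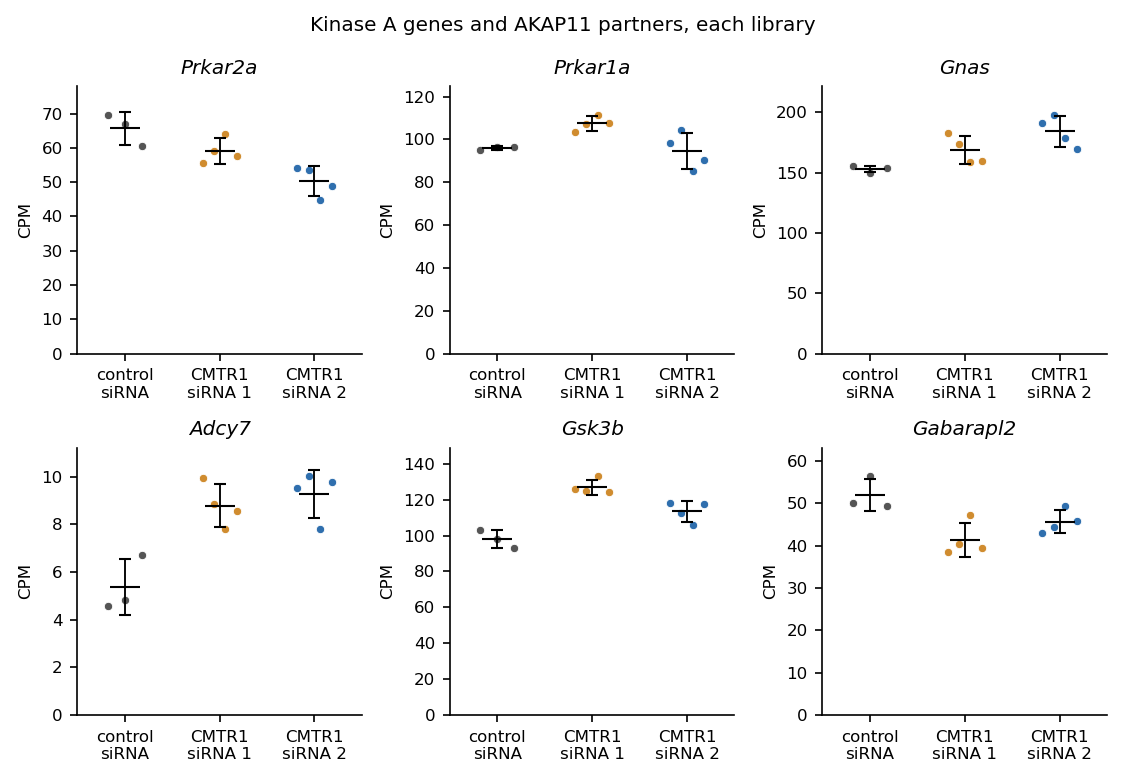
Read count scaled to library size (CPM, vertical axes starting at 0) of Prkar2a, Prkar1a, Gnas, Adcy7, Gsk3b and Gabarapl2 in each library (points), by siRNA group, with the mean (wide bar) and SD (error bar). Prkar2a is lowest with siRNA 2 (44.8 to 54.3 CPM), and Gsk3b is highest with siRNA 1 (124.2 to 133.1 CPM).

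Of 35 genes for receptors with a SOCS box, 24 were tested, and the 23 other than Wsb2 were counted, since Wsb2 was selected for being called. With each siRNA 0 of the 23 rose and 1 fell, where 1.97% and 3.55% of all tested genes fell with siRNA 1 and siRNA 2. The medians were -0.03 with siRNA 1 and 0.02 with siRNA 2. The gene called with siRNA 1 was Socs6 and that called with siRNA 2 was Socs2. Socs6, which binds tyrosine-phosphorylated receptors, fell by 0.33 in log2 with siRNA 1 (adjusted p = 0.00746 by edgeR), from 39.6, 38.1 and 39.6 CPM in control to 28.2, 32.0, 30.6 and 33.6 CPM. With siRNA 2 it had 33.5, 41.2, 37.3 and 37.8 CPM, which overlapped control. Socs2, a feedback inhibitor of growth hormone signalling, fell by 0.29 with siRNA 2 (adjusted p = 0.0012 by edgeR), from 68.6, 69.6 and 75.2 CPM in control to 56.3, 55.7, 60.5 and 60.4 CPM. With siRNA 1 it had 65.6, 65.2, 67.5 and 67.9 CPM, and its log2 fold change was -0.10 (adjusted p = 0.447).

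The partners of WSB proteins in the ligase were described next. All 38 genes of the CUL2 and CUL5 ligases and their NEDD8 and COP9 signalosome machinery were tested, and 2 rose and 0 fell with each siRNA, where 2.71% and 6.17% of all tested genes rose with siRNA 1 and siRNA 2. The medians were 0.02 and 0.07. The core subunits Cul5, Elob, Eloc and Rnf7 (the RING subunit) were not called against control, with log2 fold changes between -0.09 and 0.12. Cul5 had 129.9, 123.0 and 119.7 CPM in control, 115.5, 117.2, 119.7 and 125.6 CPM with siRNA 1, and 140.6, 130.2, 128.2 and 142.4 CPM with siRNA 2. Cand2 and Klhdc2, a cullin exchange factor and a CUL2 substrate receptor, rose by 0.23 each with siRNA 1 (adjusted p = 0.0236 and 0.0339 by edgeR), and neither was called by DESeq2. The Cand2 call was also lost without any 1 of the 3 control libraries or siRNA 1 replicate 2, and the Klhdc2 call with TMM factors, with no filter on low counts, or without control replicate 2 or 3 or siRNA 1 replicate 1, 2 or 3. With siRNA 2, the CUL2 receptor gene Fem1a rose by 0.34 (adjusted p = 0.000724 by edgeR), from 61.6, 54.8 and 48.6 CPM to 69.8, 74.0, 70.6 and 64.9 CPM. Cul2 rose by 0.21 with siRNA 2 (adjusted p = 0.0123 by edgeR), and that call was lost with DESeq2 and without control replicate 3.

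In a list of proteins reported as WSB substrates, the BCL-2 family and Hif1a, which is neither, 11 of 12 genes were tested. With siRNA 1, 0 rose and 1 fell, against 2.71% and 1.97% of all tested genes. With siRNA 2, 2 rose and 1 fell, against 6.17% and 3.55%. Their medians were 0.03 and -0.003. Pmaip1 encodes NOXA, a pro-apoptotic BH3-only protein reported as a WSB2 substrate, and it rose by 0.42 with siRNA 2 (SE 0.098, adjusted p = 0.00312 by edgeR). It had 28.6, 24.7 and 27.3 CPM in control and 37.9, 40.6, 26.6 and 38.5 CPM with siRNA 2, and replicate 3 of siRNA 2 lay within control. With siRNA 1 it had 35.3, 34.3, 30.9 and 29.8 CPM, all above control, and the value of 0.28 was not called (adjusted p = 0.104). Bcl2l11, which encodes the BH3-only protein BIM, fell by 0.22 with siRNA 2 (adjusted p = 0.0116 by edgeR), and the call was lost without control replicate 1 or 2 or siRNA 2 replicate 1. Hif1a, the oxygen-sensitive transcription factor, rose by 0.19 with siRNA 2 (adjusted p = 0.0336 by edgeR), but was not called with TMM factors, with DESeq2 or without any of 6 libraries (all 3 control libraries and siRNA 2 replicates 1, 2 and 4). Atm, the DNA damage kinase reported as a WSB1 substrate, fell by 0.20 with siRNA 1 (adjusted p = 0.0136 by edgeR), and the call was lost without control replicate 1 or 2 or siRNA 1 replicate 2. Its value with siRNA 2 was -0.08 (adjusted p = 0.374).

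**Figure D4:**
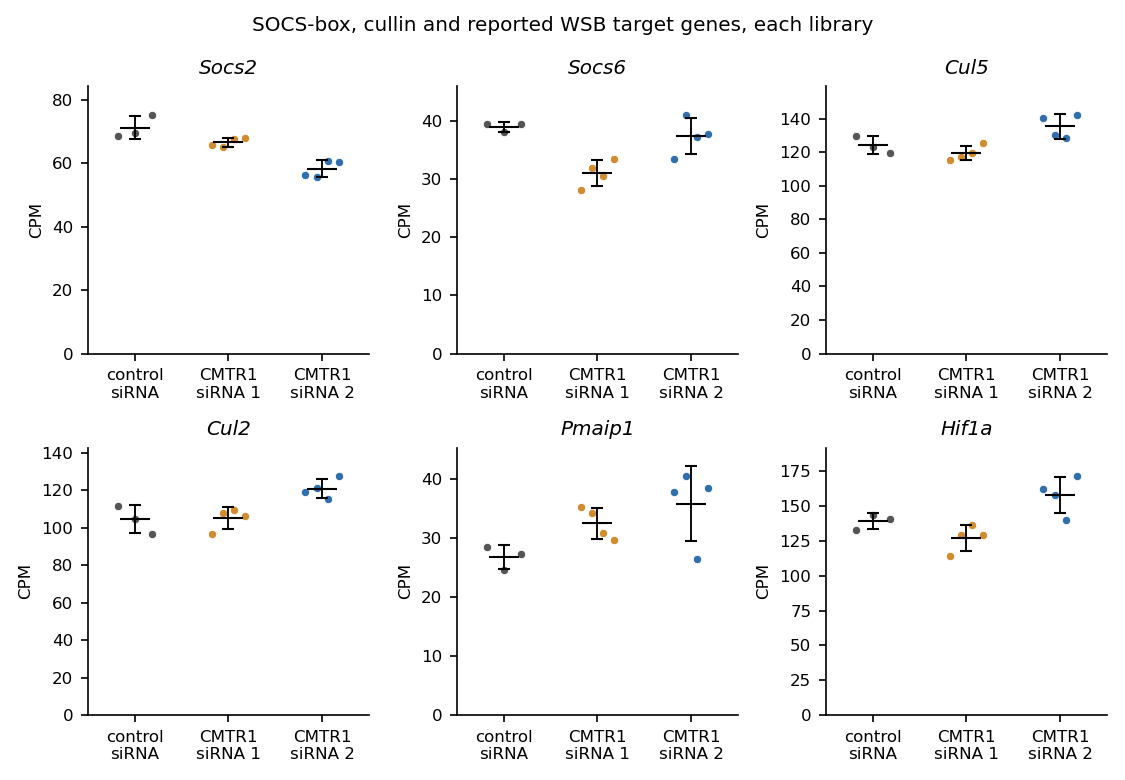
Read count scaled to library size (CPM, vertical axes starting at 0) of Socs2, Socs6, Cul5, Cul2, Pmaip1 and Hif1a in each library (points), by siRNA group, with the mean (wide bar) and SD (error bar). Socs2 is lowest with siRNA 2 (55.7 to 60.5 CPM) and Socs6 with siRNA 1 (28.2 to 33.6 CPM), while 1 siRNA 2 library of Pmaip1 lies within control.

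**Figure D5:**
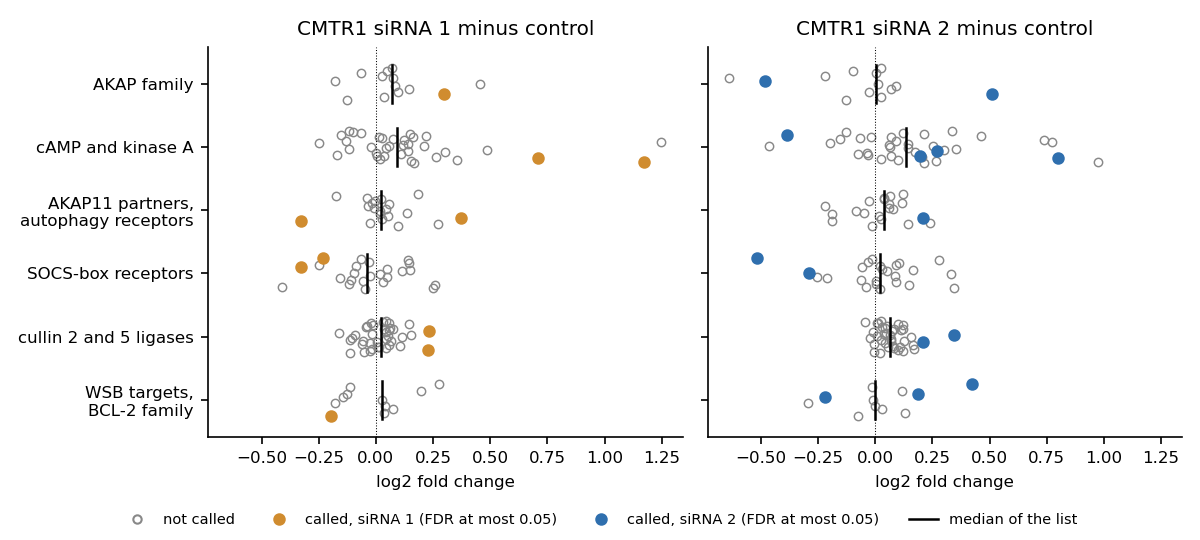
Log2 fold change (horizontal axis) of each tested gene of the 6 gene lists with siRNA 1 (left) and siRNA 2 (right), with called genes filled and the median of each list as a black line. Most genes lie near 0, and 1 to 4 genes of a list are called in each panel. Of all tested genes, 4.67% (siRNA 1) and 9.72% (siRNA 2) were called. The counts include Akap11 (0.30 and 0.51) and Wsb2 (-0.23 and -0.52), which were selected for being called. Without Akap11, 0 AKAP genes are called with siRNA 1.

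The genes whose log2 CPM followed Akap11 most closely over the 11 libraries, of 10977 genes compared with a mean log2 CPM of at least 2, were Tek (Pearson r = 0.963), an angiopoietin receptor, Zfp334 (0.951), Taf9b (0.95), a TFIID-related subunit, Gcnt1 (0.938), a glycosyltransferase, and Kctd10 (0.937), a cullin 3 adaptor. Those most like Wsb2 were Rbm3 (r = 0.969), the cold-inducible RNA-binding protein, Anp32b (0.94), a histone chaperone, Iars2 (0.936), the mitochondrial isoleucyl-tRNA synthetase, Rps27 (0.931), a ribosomal protein, and Obsl1 (0.928), a cytoskeletal adaptor. Genes with Gm, AC, AL, CT or Rik symbols were not compared. These correlations are descriptions over libraries that share depth and the 3 groups, and no p is given. Rbm3 had means of 237.6 CPM in control, 202.9 CPM with siRNA 1 and 168.3 CPM with siRNA 2, beside 101.0, 85.9 and 70.5 CPM for Wsb2. Tek had means of 18.2, 22.2 and 26.4 CPM, beside 126.8, 156.2 and 180.9 CPM for Akap11. Rps27 has processed copies elsewhere in the genome that could share its reads, so its counts are uncertain.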

How the data were processed

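RNA was depleted of ribosomal RNA and sequenced from 11 libraries of E14 ESCs, 3 of control siRNA and 4 of each CMTR1 siRNA. The authors deposited raw read counts per Ensembl gene. According to the methods and the submitters' processing notes, cutadapt trimmed the reads, STAR placed them on GRCm38, Picard took out PCR duplicates and featureCounts assigned them to genes, with no versions given in the sources used here. In 10 of 11 files the last lines are totals of unassigned reads in the HTSeq-count layout, which were set aside. Removal of duplicates lowers the counts of highly expressed genes most.

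Genes with more than 1 CPM in at least 4 libraries (16073 of 54838) entered 1 fit of all 3 groups in edgeR 4.0.16 under R 4.3.3, tested by its quasi-likelihood method, and were scaled by total gene reads (the TMM factors lay between 0.986 and 1.012). The paper's methods named edgeR's exactTest, which was run as an alternative here. Adjusted p-values are Benjamini-Hochberg values over all tested genes, and a gene was called at 0.05. Symbols, exon lengths and UTRs came from GENCODE vM21 (54809 IDs matched) and start sites from RefSeq. The fit was tested on simulated data first. The text names the 4 genes, Cmtr1, up to 6 called genes per gene list, core PKA and CUL5 ligase genes, neighbours, and the 5 genes most like Akap11 and Wsb2. The genes and gene lists were chosen with earlier results of these data known. Alternatives were TMM factors, DESeq2 1.42.0, exactTest, 2 other filters (none, and more than 5 CPM), a fit of the 2 groups compared, the replicate number as a block, and each library left out. The counts carry counting error and the spread between libraries, and both siRNAs are compared with the same control libraries.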

Additional observations from a re-analysis of the deposited data

Results flagged for a closer look

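In the siRNA 2 group, the Akap11 value of replicate 1, 202.1 CPM, stood apart from the other 3 libraries by Dixon's test. A group of 4 is marked in this way by chance about 1 time in 20, and 8 groups were tested.

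Genes of the pathway lists and neighbours named in the report whose level differed between the siRNAs by edgeR's quasi-likelihood test (adjusted p at most 0.05, as for 7.44% of all tested genes) are given as log2 fold changes of siRNA 2 minus siRNA 1. The genes picked for their likeness to Akap11 or Wsb2 are left out, because their levels over these same libraries chose them. Lower with siRNA 2 were Prkar1a (-0.18), Prkar2a (-0.23), Gsk3b (-0.16), Socs2 (-0.19) and Dgkh (-0.25), the neighbour of Akap11. Higher with siRNA 2 were Cul5 (0.18), Atf1 (0.19), Socs6 (0.27), Cul2 (0.20) and Hif1a (0.31).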

How the results depend on the processing

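Akap11 stayed higher and Wsb2 lower with both siRNAs in all 7 alternatives and with any library left out. Both genes were selected on these same libraries, which favoured this outcome, so it is given as a description only. Over the 7 alternatives the log2 fold changes ran from 0.28 to 0.32 (siRNA 1) and 0.48 to 0.53 (siRNA 2) for Akap11, and from -0.26 to -0.23 and -0.55 to -0.52 for Wsb2. Akap1 (adjusted p 0.0525 to 0.605) and Wsb1 (0.491 to 0.984) were called against control in none of these settings. Of 21 calls against control of named genes in the gene lists and of Nf1, 8 kept an adjusted p at most 0.05 in every setting that gave one.

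The balance of all calls changed with the scaling, since 57.9% (siRNA 1) and 63.4% (siRNA 2) were higher with total counts and 46.4% and 49.8% with TMM factors. With DESeq2, which differs in its test as well as its scaling, 38.2% and 42.7% were higher. DESeq2 called 521 genes for siRNA 1 (edgeR 751), 958 for siRNA 2 (edgeR 1562) and 740 between the siRNAs (edgeR 1196). TMM factors called 746 genes for siRNA 1 and 1462 for siRNA 2. For siRNA 1, the limit of 5 CPM called 788 genes, no filter 749 and the fit of the 2 groups 873. List counts here include Akap11 and Wsb2, which were selected for being called. WSB targets stands for the whole list of WSB substrates, BCL-2 family genes and Hif1a. DESeq2 called 1 AKAP gene with siRNA 2, 1 cAMP gene, 0 CUL2 and CUL5 genes and 0 neighbours with siRNA 1, and 1 CUL2 and CUL5 gene with siRNA 2. TMM factors gave 2 AKAP11 partners with siRNA 2, and 1 CUL2 and CUL5 gene and 2 neighbours with siRNA 1. A limit of 5 CPM left 1 cAMP gene, no filter left 1 CUL2 and CUL5 gene, and a fit of the 2 groups compared gave 4 AKAP11 partners and 2 WSB targets, all with siRNA 1. Differences near 0 changed sign with DESeq2 and with TMM factors, to -0.023 and -0.018 for Elob (siRNA 2), to -0.020 and -0.017 for Atf1 and to -0.017 and -0.013 for Cul2 (both siRNA 1).

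With 1 library left out, 355 to 852 genes were called with siRNA 1 (355 without control replicate 2, 450 without control replicate 3, 425 without siRNA 1 replicate 2), 807 to 1658 with siRNA 2 (916, 807 and 1007 without control replicates 2 and 3 and siRNA 2 replicate 1), and 724 to 1365 between the siRNAs (737, 724 and 751 without siRNA 1 replicates 1 and 2 and siRNA 2 replicate 1). The lists gave, for siRNA 1 and siRNA 2 in turn unless 1 is named, 1 to 2 AKAP genes (siRNA 2), 0 to 3 cAMP genes (siRNA 1), 1 to 4 and 0 to 2 AKAP11 partners, 1 to 2 SOCS-box genes (siRNA 1), 0 to 2 and 1 to 4 CUL2 and CUL5 genes, 0 to 2 and 1 to 3 WSB targets, and 0 to 2 and 0 to 1 neighbours. Uncalled differences that changed sign ran from -0.036 to 0.029 for Akap1 and -0.002 to 0.090 for Wsb1 between the siRNAs. Against control with siRNA 2 they ran from -0.057 to 0.020 for Wsb1, -0.073 to 0.025 for Prkar1a, -0.066 to 0.032 for Elob, -0.028 to 0.022 for Rfc5 and -0.144 to 0.009 for Dgkh. With siRNA 1 they ran from -0.069 to 0.009 for Rnf7, -0.048 to 0.029 for Atf1 and -0.043 to 0.058 for Cul2. Apart from the smaller number of libraries, the cause of these shifts was not tested.

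Samples with the same replicate number did not deviate together (mean r of 0.0097 over 10 pairs, -0.057 to 0.062, against -0.0032 for 30 other pairs), so the numbers were not taken as pairs. With the replicate block, 840, 1486 and 1242 genes were called for siRNA 1, siRNA 2 and between the siRNAs. Akap11 had log2 fold changes of 0.32 and 0.53 and Wsb2 of -0.24 and -0.52. Cul2 with siRNA 1 (-0.008) and Rfc5 with siRNA 2 (0.005) changed sign, Gnas with siRNA 1 and Adcy2 with siRNA 2 were also called, and Hif1a was not.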
